A study of Mus musculus with 10 samples.

Results

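The TGF-beta pathway was followed through 10 genes that encode its ligands, receptors, signal carriers and feedback inhibitors. The genes were Tgfb1, Tgfb2 and Tgfb3 (ligands), Tgfbr1, Tgfbr2 and Tgfbr3 (receptors), Smad3 (signal carrier), Smad7 and Skil (feedback inhibitors) and Tgfbi (a target gene). They were chosen by symbol from the 24538 genes in the count tables, and all 10 were found. RNA was sequenced from 5 samples of metastasis-associated macrophages (MAMs) and 5 samples of resident alveolar macrophages (RAMs), the resident phagocytes of the air spaces. All mice were wild type and 8 to 10 weeks of age at sampling. MAMs came from mice of the C57BL6/J strain whose lungs had been seeded through the tail vein with the breast cancer line E0771-LG of the mouse, when the females were 6 to 8 weeks old. Metastases were dissected from the lungs, and those of 2 to 4 mice were pooled. RAMs came from lungs without tumors. The authors state that C57BL6/J mice were assigned at random either to no treatment or to metastasis. They describe a sample as a single mouse or as a pool of metastases. Cells of both groups were sorted as CD45+ F4/80+ LY6C- MRC1+ with high forward scatter. MAMs were then CD11B+ CD11C- and RAMs CD11B- CD11C+. Alpha-amanitin and actinomycin D, which block transcription, were present during digestion of the tissue. The groups differ in sorting gate, cell population and presence of a tumor, and these cannot be told apart in this design.

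TGF-beta is secreted in a latent complex and acts once it is released from it. The active ligand binds the type II receptor (Tgfbr2), which recruits and phosphorylates the type I receptor (Tgfbr1), and this in turn phosphorylates SMAD2 and SMAD3, which enter the nucleus with SMAD4 and switch target genes. Among those targets are the inhibitors of the pathway themselves. In alveolar macrophages TGF-beta made by the cells is known to act back on them and to be needed for their development, and in tumors TGF-beta from macrophages is known to restrain T cells and to remodel matrix.

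The signaling receptors and the signal carrier changed in opposite directions. Tgfbr1 and Tgfbr2 were 4.47-fold and 3.33-fold lower in MAMs, Smad3 was 11.2-fold higher, and Tgfb1, the ligand with by far the most RNA, did not pass the test. Of the 10 genes, 8 passed edgeR's quasi-likelihood test at a Benjamini-Hochberg adjusted p below 0.05 over 11571 genes, 4 higher and 4 lower in MAMs. Of all genes tested, 56.2% passed, 28.9% higher and 27.3% lower. With a fold change over 2 in addition, 6 of 10 were differentially expressed, 3 in each direction (Tgfbr3, Smad3 and Smad7 higher, Tgfb2, Tgfbr1 and Tgfbr2 lower), against 30.3% of all genes (15.3% higher and 15.1% lower). The count was 4 with limma on log2(FPKM + 1) or when a fold of 2 was itself tested, both without Tgfb2 and Smad7. The median log2 fold change was 0.46 over the 10 genes and -0.015 over all genes tested. All 10 passed the filter of a mean FPKM of at least 1 in either group. However, Tgfb2 passed only through RAMs and Tgfbr3 only through MAMs, so the filter itself required a high level in 1 group of these genes. FPKM are fragment numbers scaled by transcript length and library size, and are used here wherever levels of different genes are compared. CPM are counts scaled by normalized library size and not by gene length.

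**Figure D1:**
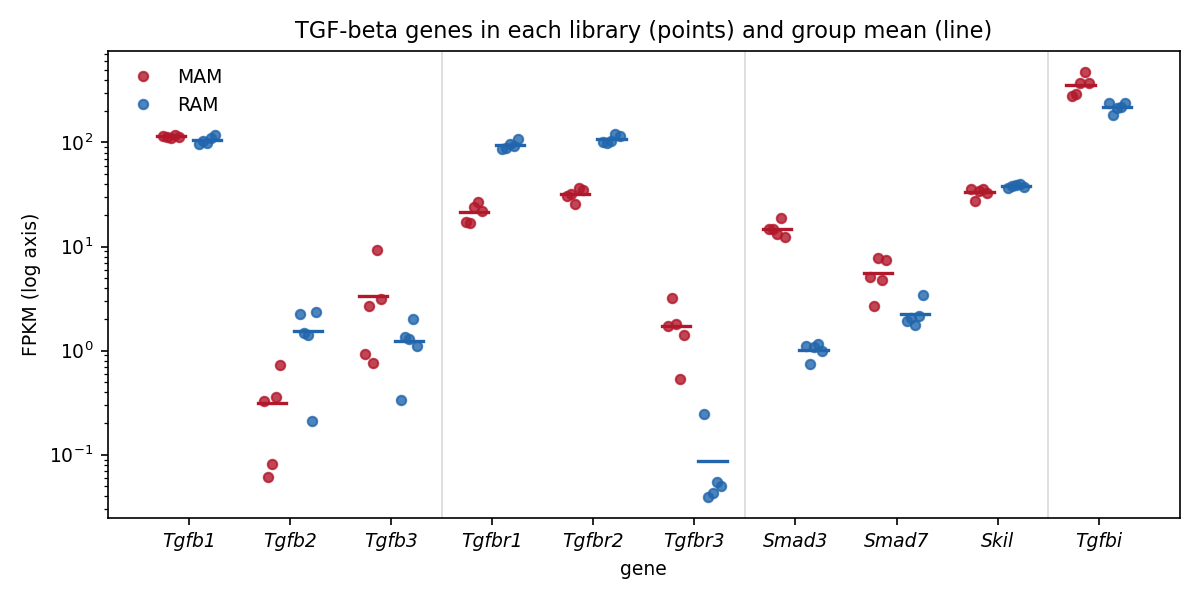
FPKM of the 10 genes on a log axis, with 1 point for each of the 5 MAM and 5 RAM libraries and a line at the group mean. Tgfb1 lies near 100 FPKM in both groups, Tgfbr1 and Tgfbr2 are lower in every MAM library than in any RAM library, and Smad3 is higher in every MAM library.

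Values after ± are SDs over the 5 libraries of a group, unless SE, the standard error of the fit, is written. The libraries held 55391447 to 87523247 counts on genes in MAMs and 50746305 to 72150650 in RAMs. The gate was visible in the RNA: Itgam, the gene of CD11B, was higher in MAMs (1277 ± 90.0 FPKM against 13.5 ± 1.02) and Itgax, the gene of CD11C, was lower (38.1 ± 9.63 against 228 ± 18.8 FPKM). Of 10 markers of alveolar macrophages, 9 were lower in MAMs and Marco, named after its value was seen, did not pass the test, and all 10 markers of monocyte-derived or interstitial macrophages were higher. The summed FPKM of these lists ran from 8513 to 10880 in RAMs and 185 to 338 in MAMs for the first, led in RAMs by Chil3, and from 248 to 332 in RAMs and 8417 to 9678 in MAMs for the second, led in MAMs by C1qb. Other cells were looked for with further lists, whose summed FPKM are given as ranges over libraries. Stromal markers summed to 2.79 to 10.9 in MAMs and 1.10 to 3.73 in RAMs, led by Acta2, which did not pass the test. Col1a1 and Pdgfra (both named after their values were seen) were higher in MAMs by 4.74 and 4.49 on the log2 scale. Their means were 1.11 and 1.02 FPKM in MAMs, through which alone they passed the filter. Neutrophil markers summed to 14.8 to 59.8 and 6.35 to 11.4, led by S100a8, with Elane at 0 counts in every library and Ly6g at 0 in every RAM library. Lymphocyte markers, led by Cd79a, ran from 3.44 to 8.49 and from 2.89 to 11.5. Dendritic cell markers ran from 1.22 to 6.91 in MAMs and from 4.42 to 5.96 in RAMs. Clec9a led them in RAMs, and Ccr7 (named after its value was seen) led in MAMs and was higher there. However, Ccr7 passed the filter only through MAMs, where it ran from 0.0973 to 3.51 FPKM, and it overlapped between the groups in CPM. Endothelial markers ran from 4.07 to 13.8 in MAMs and from 13.3 to 22.8 in RAMs, with Cldn5 at 0 counts in every MAM library. Vwf led them in RAMs and was lower in MAMs, whereas Kdr, which led in MAMs, and Cdh5 were higher in MAMs by 4.93 and 1.48 on the log2 scale (both named after their values were seen). Kdr and Cdh5 passed the filter only through MAMs, and Cdh5 overlapped between the groups in CPM. Platelet markers summed to 810 to 2310 in MAMs and 18.6 to 22.1 in RAMs, led by Pf4. Of the other members, all named after their values were seen, Ppbp was also higher in MAMs (139.6 against 2.21 FPKM), while Gp9, Itga2b, Gp1ba and Treml1 had means of at most 1.25 FPKM in either group. Epithelial markers ran from 10.9 to 31.3 in MAMs and from 604 to 746 in RAMs, led by Krt19 (540 FPKM in RAMs). Of 7 tested, 6 were lower in MAMs and 1, Krt18, did not pass (1.63 FPKM in MAMs and 0.134 in RAMs). Krt7 and Krt8 were under the filter. Their means were 0.354 and 0.851 FPKM in MAMs against 0.132 and 0.0254 in RAMs. Krt18, Krt7 and Krt8 were named after their values were seen. The part of these lists in the results below was not tested. In these bulk samples fewer cells of a type and less RNA per cell cannot be told apart.

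Tgfb1, which encodes the ligand that immune cells mostly make, had a mean 1.11-fold higher in MAMs, which did not pass the test. MAM libraries 1 to 5 held 115, 112, 111, 119 and 114 FPKM, and RAM libraries 1 to 5 held 97.1, 102, 97.6, 111 and 118. In FPKM the groups overlapped. RAM replicate 5 lay above MAM replicates 1, 2, 3 and 5, and RAM replicate 4 above MAM replicate 3. In CPM, RAM replicate 5 (176) lay above MAM replicates 2 and 3 (175 and 174). The other RAM libraries lay below all MAM libraries there. MAMs exceeded RAMs by 0.15 on the log2 scale with a standard error of 0.0682 (edgeR adjusted p = 0.0685). It turned to -0.011 under upper-quartile normalization, which shifts all genes by a median of -0.16, and it passed the test without RAM replicate 5 (0.18, edgeR adjusted p = 0.0413). Tgfb1 was also among the steadiest genes within a group. The SD of its log2 CPM was 0.0489 in MAMs and 0.0823 in RAMs, and 0.864% and 6.74% of all genes tested had a lower one. It made up 97.0% ± 2.70 of the summed FPKM of the 3 ligands in MAMs and 97.4% ± 0.343 in RAMs.

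The other ligand genes were low and variable. Tgfb2 encodes a ligand that needs betaglycan, the type III receptor, to bind well. It had 2.27, 1.49, 1.43, 0.213 and 2.34 FPKM in RAM libraries 1 to 5 and 0.330, 0.0605, 0.0812, 0.356 and 0.730 in MAM libraries 1 to 5. RAM replicate 4 fell among the MAM libraries, and the other 4 RAM libraries lay above all of them. Tgfb2 was lower in MAMs, with a log2 change of -2.19 ± 0.647 SE and an edgeR adjusted p of 0.00948, behind which stood 17 to 261 counts in MAM libraries and 58 to 720 in RAM libraries. Tgfb3, a ligand best known from palate and lung development, had 0.928, 2.67, 0.762, 9.24 and 3.16 FPKM in MAM libraries 1 to 5. In RAM libraries 1 to 5 it had 0.337, 1.36, 1.30, 2.03 and 1.10. MAM replicate 4 stood alone at the top, while MAM replicates 1 and 3 lay within the range of RAMs. The log2 fold change of 0.95 (standard error 0.577) did not pass the test (edgeR adjusted p = 0.176), and it was 0.15 without MAM replicate 4. Tgfb3 lies on the minus strand and overlaps Ttll5 on the plus strand, and the strand setting of the counting is not given in the sources used here, so reads from the overlap cannot be assigned to either gene. Ttll5 went the other way, with 25.2 CPM in MAMs and 93.7 in RAMs.

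The start sequence differed between the ligand genes Tgfb1 and Tgfb2 and between the receptor genes Tgfbr1 and Tgfbr2. It is shown for genes whose values carry the comparison. In the RefSeq promoter table (GRCm38.p6, 250 bases before to 50 after the start, 32851 promoters), 6 of the 10 genes had an entry. These were Tgfb1, Tgfb2, Tgfbr1, Tgfbr2, Smad3 and Tgfbi. Capitals mark, on either strand, the GC box GGGCGG (in 35.7% of all promoters), the CAGA box CAGACA that SMAD3 can bind (21.04%), the core GAGGAA of PU.1, a factor of the myeloid lineage (28.3%), and the TATA box TATAAA (13.6%).
Tgfb1, chr7:25686752-25687051, plus strand: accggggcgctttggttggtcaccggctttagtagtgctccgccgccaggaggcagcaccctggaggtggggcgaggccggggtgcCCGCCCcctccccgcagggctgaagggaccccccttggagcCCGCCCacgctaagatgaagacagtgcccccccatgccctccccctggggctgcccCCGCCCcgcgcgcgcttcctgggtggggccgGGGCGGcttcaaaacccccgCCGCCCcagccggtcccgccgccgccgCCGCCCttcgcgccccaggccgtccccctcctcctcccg
Tgfb2, chr1:186705940-186706239, minus strand: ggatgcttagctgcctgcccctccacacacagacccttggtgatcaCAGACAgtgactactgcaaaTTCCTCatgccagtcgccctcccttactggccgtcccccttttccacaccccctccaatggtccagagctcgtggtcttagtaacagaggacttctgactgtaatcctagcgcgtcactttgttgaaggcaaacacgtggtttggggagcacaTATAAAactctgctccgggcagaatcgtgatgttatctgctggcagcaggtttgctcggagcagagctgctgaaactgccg
Tgfbr1, chr4:47352972-47353271, plus strand: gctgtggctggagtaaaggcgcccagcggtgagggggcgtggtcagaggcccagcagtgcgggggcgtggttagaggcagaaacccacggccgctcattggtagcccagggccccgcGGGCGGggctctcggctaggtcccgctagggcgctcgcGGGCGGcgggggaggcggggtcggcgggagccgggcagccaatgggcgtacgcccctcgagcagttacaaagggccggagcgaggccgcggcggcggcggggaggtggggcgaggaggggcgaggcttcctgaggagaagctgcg
Tgfbr2, chr9:116175314-116175613, minus strand: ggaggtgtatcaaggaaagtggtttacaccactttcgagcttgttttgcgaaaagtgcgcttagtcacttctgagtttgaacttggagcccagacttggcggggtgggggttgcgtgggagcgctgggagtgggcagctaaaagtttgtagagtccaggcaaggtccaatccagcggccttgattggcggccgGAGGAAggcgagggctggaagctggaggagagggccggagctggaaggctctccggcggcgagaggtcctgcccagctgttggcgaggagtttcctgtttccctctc
Smad3, chr9:63757945-63758244, minus strand: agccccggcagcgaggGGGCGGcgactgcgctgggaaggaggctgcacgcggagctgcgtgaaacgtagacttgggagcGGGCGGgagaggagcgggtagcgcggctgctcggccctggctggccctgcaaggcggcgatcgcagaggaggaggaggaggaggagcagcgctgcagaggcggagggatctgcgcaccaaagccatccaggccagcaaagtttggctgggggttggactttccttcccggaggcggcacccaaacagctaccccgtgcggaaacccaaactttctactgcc
Tgfb1 had 6 GC boxes, no match to the other motifs, and a GC content of 77.0%, where the median of all promoters was 52.7%. Tgfb2 had no GC box, 1 CAGA box, 1 PU.1 core, 1 TATA box and 54.3% GC. Tgfbr1 is shown at the first of 2 starts and had 2 GC boxes and 74.7% GC there, while its second start, at 52.0% GC, had 1 CAGA box and 1 PU.1 core. Tgfbr2 had a single PU.1 core and 59.0% GC. Smad3 had 2 GC boxes and 67.7% GC. These matches describe letters only, and binding was not measured.

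Both signaling receptors fell in MAMs. Tgfbr1 encodes the type I receptor ALK5, the kinase that phosphorylates SMAD2 and SMAD3. It lies on chr4:47353222-47414931 of GRCm38 (plus strand, GENCODE) and overlaps no other annotated gene. RAM libraries 1 to 5 held 87.4, 89.0, 96.3, 91.5 and 108 FPKM, and MAM libraries 1 to 5 held 17.4, 16.7, 24.0, 26.7 and 21.7. Every MAM library lay far below the lowest RAM library. The change was -2.16 ± 0.120 SE in log2 units (edgeR adjusted p = 6.47e-10), and 6.29% of all genes tested fell by more. Tgfbr2, the type II receptor, which binds the ligand first, lies on chr9:116084293-116175360 (minus strand) with no overlapping gene. It had 100, 98.7, 104, 119 and 116 FPKM in RAM libraries 1 to 5 and 30.7, 32.1, 25.8, 36.4 and 35.1 in MAM libraries 1 to 5. No MAM library came near a RAM library. For Tgfbr2 the change was -1.74 ± 0.0958 SE in log2 units (edgeR adjusted p = 5.79e-10), and 8.68% of all genes fell by more.

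The type I receptor fell somewhat more than the type II receptor. The ratio of Tgfbr1 to Tgfbr2 FPKM in the same library was 0.880 ± 0.0668 in RAMs and 0.674 ± 0.164 in MAMs, and 1 of 5 MAM libraries, replicate 3 at 0.932, lay as high as RAMs. The difference was -0.41 on the log2 scale (exact permutation test, two-sided, p = 0.0476, and 0.0476 after Benjamini-Hochberg adjustment over 2 ratios). It held without MAM replicate 3 but failed the test without any 1 of the other 9 libraries, at adjusted p from 0.0635 to 0.0952 in the same exact permutation test.

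Tgfbr3 moved the other way. It encodes betaglycan, a co-receptor without a kinase that presents the ligands to the type II receptor and can be shed. MAM libraries 1 to 5 held 1.71, 3.22, 1.81, 0.540 and 1.40 FPKM. RAM libraries 2 to 5 held 0.0396, 0.0429, 0.0548 and 0.0496, whereas RAM replicate 1 held 0.246. Every MAM library lay above every RAM library. Tgfbr3 was higher in MAMs by 4.31 ± 0.636 SE in log2 units (edgeR adjusted p = 3.38e-05), and by 5.17 without RAM replicate 1, which moved the fold by over 1.5 times. Counts ran from 177 to 1000 in MAM libraries and from 9 to 85 in RAM libraries. The RAM mean was 4.98% of the MAM mean. C1qb in RAMs stood at 0.944% of its level in MAMs and Chil3 in MAMs at 0.897% of its level in RAMs. On log2(FPKM + 1) with limma the difference was 1.26, since a pseudocount of 1 exceeds all RAM values.

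Smad3 showed a large change with a small error. It encodes a SMAD that binds DNA directly once the type I receptor has phosphorylated it. It lies on chr9:63646767-63757994 of GRCm38 (minus strand) with no overlapping gene. MAM libraries 1 to 5 held 14.9, 14.6, 13.2, 18.6 and 12.4 FPKM and RAM libraries 1 to 5 held 1.11, 0.737, 1.08, 1.15 and 1.00. The groups were far apart, and the highest library was 1.51 times the lowest in MAMs and 1.56 times in RAMs. Smad3 rose by 3.48 ± 0.145 SE in log2 units (edgeR adjusted p = 2.26e-11), and 8.47% of all genes tested changed by more in either direction. The RAM mean was 6.89% of the MAM mean. Tgfbr1 and Tgfbr2 on one side and Smad3 on the other thus formed a different order of levels in each group. In RAMs Tgfbr2, Tgfb1 and Tgfbr1 followed Tgfbi with overlapping levels, and Smad3 stood in rank 9 of 10. In MAMs Smad3 stood in rank 6 and its libraries overlapped those of Tgfbr1 just above it.

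**Figure D2:**
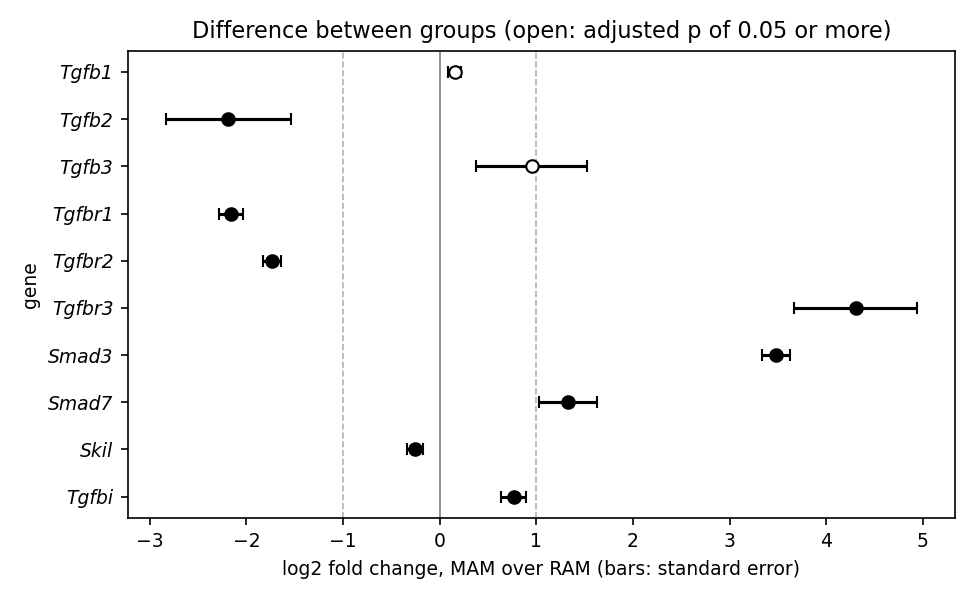
Log2 fold change of each gene, MAMs over RAMs, from edgeR's quasi-likelihood fit, with its standard error. Dashed lines mark a fold change of 2. Tgfbr1 at -2.16 and Tgfbr2 at -1.74 lie to the left, Smad3 at 3.48 and Tgfbr3 at 4.31 to the right, and Tgfb1 and Tgfb3 (open) did not pass the test.

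The feedback inhibitors did not move together. Smad7 encodes the inhibitory SMAD that blocks the type I receptor and brings ubiquitin ligases to it. MAM libraries 1 to 5 held 5.06, 2.70, 7.71, 4.73 and 7.45 FPKM and RAM libraries 1 to 5 held 1.94, 2.05, 1.78, 2.13 and 3.44. The groups overlapped only between MAM replicate 2 and RAM replicate 5. Smad7 rose by 1.33 ± 0.300 SE in log2 units (edgeR adjusted p = 0.00147). Skil encodes SnoN, a repressor that holds SMAD complexes inactive and is degraded upon signaling. It had 35.7, 27.3, 34.5, 35.9 and 32.5 FPKM in MAM libraries 1 to 5 and 36.2, 38.1, 39.3, 39.6 and 37.2 in RAM libraries 1 to 5. All RAM libraries lay above all MAM libraries, but by a narrow margin. Skil fell by 0.26 on the log2 scale, with an SE of 0.0813 (edgeR adjusted p = 0.0140), and it did not pass with limma on log2(FPKM + 1) (-0.20, adjusted p = 0.0540). In FPKM, Skil lay above Smad7 in every library of both groups.

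The ratio of the inhibitory Smad7 to the activating Smad3 differed between the groups. Smad2, the other SMAD that the type I receptor phosphorylates, was not part of this ratio. It had 10.2 FPKM in MAMs and 10.3 in RAMs, above Smad7 in mean level in both groups. The ratio of Smad7 to Smad3 FPKM was 2.29 ± 0.786 in RAMs, from 1.65 to 3.45, and 0.393 ± 0.191 in MAMs, from 0.185 to 0.603. The groups did not overlap, and the ratio was on average 6.19-fold higher in RAMs (p = 0.00794 by the same exact permutation test, which 5 against 5 cannot go below, and 0.0159 after Benjamini-Hochberg adjustment over 2 ratios). More Smad7 than Smad3 was thus seen in every RAM library and more Smad3 than Smad7 in every MAM library, in FPKM.

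**Figure D3:**
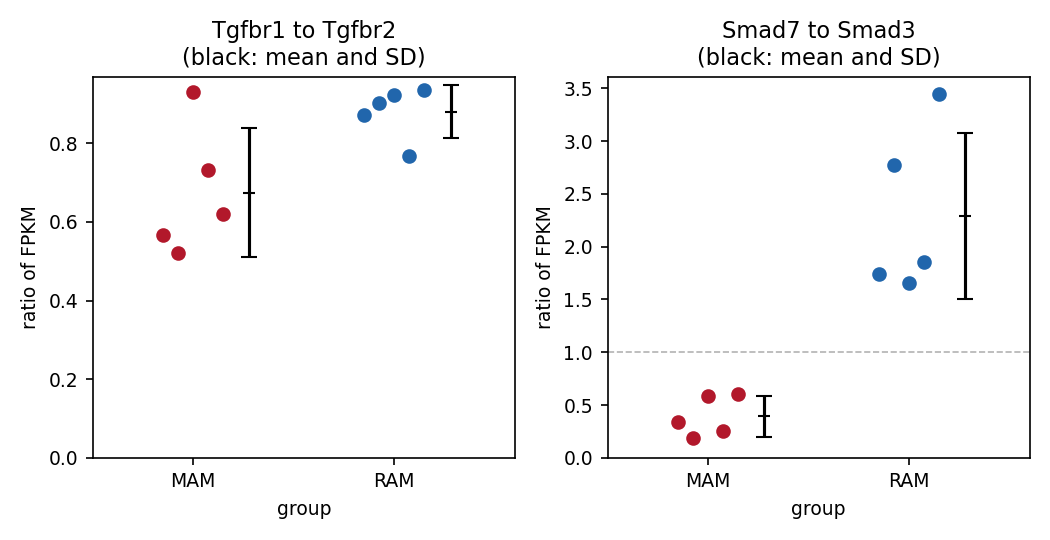
Ratio of FPKM within each library for the 2 receptor kinases (left) and for Smad7 over Smad3 (right), with the mean and SD in black and, on the right, a dashed line at a ratio of 1. The Smad7 to Smad3 ratio is at most 0.603 in MAMs and at least 1.65 in RAMs, while 1 MAM library overlaps RAMs in the receptor ratio.

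Tgfbi, which encodes a secreted matrix protein named for its induction by TGF-beta, had the highest level of the 10 genes in both groups. MAM libraries 1 to 5 held 281, 293, 369, 475 and 371 FPKM, and RAM libraries 1 to 5 held 237, 183, 215, 219 and 238. The groups did not overlap. Tgfbi rose by 0.77 ± 0.128 SE in log2 units (edgeR adjusted p = 0.000109), under a fold of 2. Tgfbi lies on chr13:56609523-56639562 (plus strand) with no overlapping gene.

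In CPM, 6 of the 10 genes did not overlap between the groups (Tgfbr1, Tgfbr2, Tgfbr3, Smad3, Skil and Tgfbi), 3 higher and 3 lower in MAMs. Of all genes tested 44.9% did not overlap, 23.7% higher and 21.2% lower. The spread within groups was above the median for the low Tgfb2, Tgfb3 and Tgfbr3. The SD of log2 CPM was 1.34 and 1.36 for Tgfb2 in MAMs and RAMs, 1.48 and 0.71 for Tgfb3, and 0.93 and 1.13 for Tgfbr3, against medians of 0.28 and 0.24 over all genes tested. These genes had means under 4 FPKM in both groups, but Smad3, at 1.01 FPKM in RAMs, had an SD of only 0.14 there. Smad7 was also above the median, at 0.64 and 0.40, while Tgfbr1, Tgfbr2, Smad3, Skil and Tgfb1 were below it in both groups, and Tgfbi only in RAMs.

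**Figure D4:**
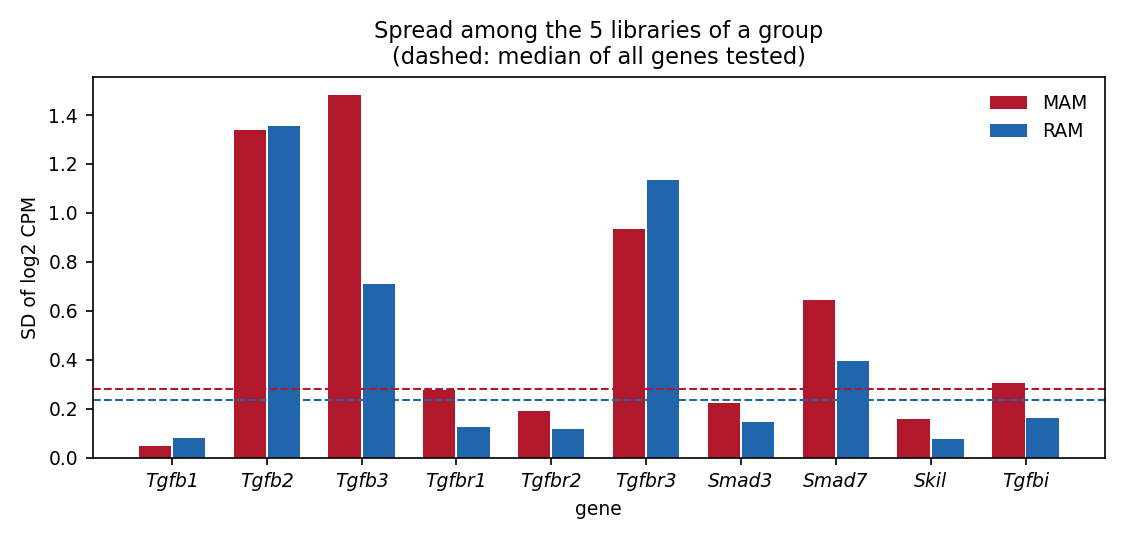
SD of log2 CPM among the 5 libraries of each group for the 10 genes, with the median over all genes tested as dashed lines (0.28 in MAMs and 0.24 in RAMs). Tgfb2, Tgfb3 and Tgfbr3 stand far above the lines and Tgfb1 far below.

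The rest of the pathway was described with 9 lists of 93 genes written from general knowledge, of which 71 genes were expressed enough to test. Of these, 39 were higher and 19 lower in MAMs by the test used above, while 28.9% and 27.3% of all genes tested were higher and lower. However, 13 of the 71 reached a mean of 1 FPKM only in MAMs and 4 only in RAMs, so the filter selected these for being high there. Of the 54 that reached it in both groups, 26 were higher and 15 lower. Of 9 tested genes that store and release latent TGF-beta, 7 were higher and 2 lower. Of the 7, Ltbp1, Ltbp3, Lrrc32 and Fbn1 passed the filter only through MAMs, and of the 5 genes that passed through both groups 3 were higher and 2 lower. Thbs1 encodes thrombospondin-1, which can free TGF-beta from its latent complex. It had 441 ± 36.4 FPKM in MAMs and 4.30 ± 0.445 in RAMs, a rise of 6.74 in log2 units (edgeR adjusted p = 2.71e-16). Lrrc32 encodes GARP, which anchors latent TGF-beta on the surface of regulatory T cells and platelets, and Fbn1 encodes fibrillin-1. Both were higher in MAMs, by 7.13 and 4.90 on the log2 scale, but at means of 1.07 and 1.37 FPKM there. Chosen after their values were seen, Nrros, the anchor of latent TGF-beta on myeloid cells, rose from 95.0 ± 7.87 to 269.9 ± 15.4 FPKM (log2 fold change 1.51) and Itgav, the alpha V integrin chain, rose from 8.59 ± 0.900 to 28.7 ± 1.32 FPKM (log2 fold change 1.76). Itgb6 and Itgb8, whose beta chains pair with alpha V to activate TGF-beta, were under the filter in both groups, at means of at most 0.0322 FPKM. The genes that were lower were Furin, the protease that cleaves the ligand precursor, which fell by 0.32, and Emilin1, whose product restrains that cleavage, which fell by 1.85 on the log2 scale.

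Among genes whose products assist the receptors, 5 of 9 tested were higher and none lower. Of the 5, Cd109 passed the filter only through MAMs. Of the 8 genes that passed through both groups, 4 were higher and none lower. Eng encodes endoglin, a co-receptor of the betaglycan family. It had 28.6 ± 5.16 FPKM in MAMs and 1.05 ± 0.280 in RAMs, a change of 4.79 in log2 units (edgeR adjusted p = 1.96e-10). Cd109, which encodes a surface protein that binds TGF-beta and dampens its signal, rose by 4.68, and Dab2, an adaptor between receptors and SMADs, by 0.77 on the log2 scale. Acvrl1, the type I receptor that partners with endoglin, had a log2 fold change of 0.14 and did not pass.

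The other SMADs moved little. Of 4 tested, Smad4, the shared partner, was higher by 0.44, Smad1 and Smad5, which carry BMP signals, were lower by 0.83 and 0.41 on the log2 scale, and Smad2, the partner of Smad3, did not pass (-0.033, edgeR adjusted p = 0.775). Smad2 had 10.2 ± 1.07 FPKM in MAMs and 10.3 ± 0.759 in RAMs, so mean Smad2 was above mean Smad3 in RAMs and below it in MAMs.

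Inhibitors of the signal other than Smad7 and Skil went both ways, with 6 of 11 tested higher and 5 lower. Nedd4l passed the filter only through MAMs. Of the 10 that passed through both groups, 5 were higher and 5 lower. Nedd4l, a ubiquitin ligase for SMAD2 and SMAD3, rose by 2.43 and Sik1, a kinase that helps to remove the type I receptor, by 1.62 on the log2 scale. Ldlrad4, whose membrane protein keeps SMADs from the receptor, had 3.33 ± 1.95 FPKM in MAMs and 14.6 ± 2.91 in RAMs, a change of -2.14 in log2 units (edgeR adjusted p = 5.82e-05). Ski, the close relative of Skil, and Pmepa1, the close relative of Ldlrad4, were lower by 1.01 and 1.04 on the log2 scale, both named after their values were seen. Helpers of the signal were 5 higher and 1 lower of 7 tested, but 2 higher and 2 lower under upper-quartile normalization. The largest differences were in Usp4 (0.91), Usp11 (-1.75) and Trim33 (0.47), enzymes that remove or attach ubiquitin.

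Target genes known from many cell types did not share a direction. Of 13 tested, 7 were higher and 3 lower in MAMs, and 5 were lower without MAM replicate 1. Pdgfb, a growth factor, and Timp1, a protease inhibitor, rose by 4.71 and 2.80 on the log2 scale. Both passed the filter only through MAMs, and of the 11 target genes that passed through both groups 5 were higher and 3 lower. Id1, which encodes an inhibitor of DNA binding, had 2.40 ± 1.96 FPKM in MAMs and 22.4 ± 6.58 in RAMs, a change of -3.24 in log2 units (edgeR adjusted p = 0.000103). Klf10, named after its value was seen, was lower by 1.27. All of these genes also respond to other signals. Of 6 tested genes that microglia, the macrophages of the brain, need TGF-beta to express, 4 were higher and 1 lower, or 2 lower without RAM replicate 4. Tmem119 and Cx3cr1 passed the filter only through MAMs and Gpr34, the lower gene, only through RAMs. Tmem119, Cx3cr1 and Sparc rose by 5.70, 4.87 and 3.24, P2ry12 did not pass (-0.33), and Sall1 had 0 counts in all 10 libraries.

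**Figure D5:**
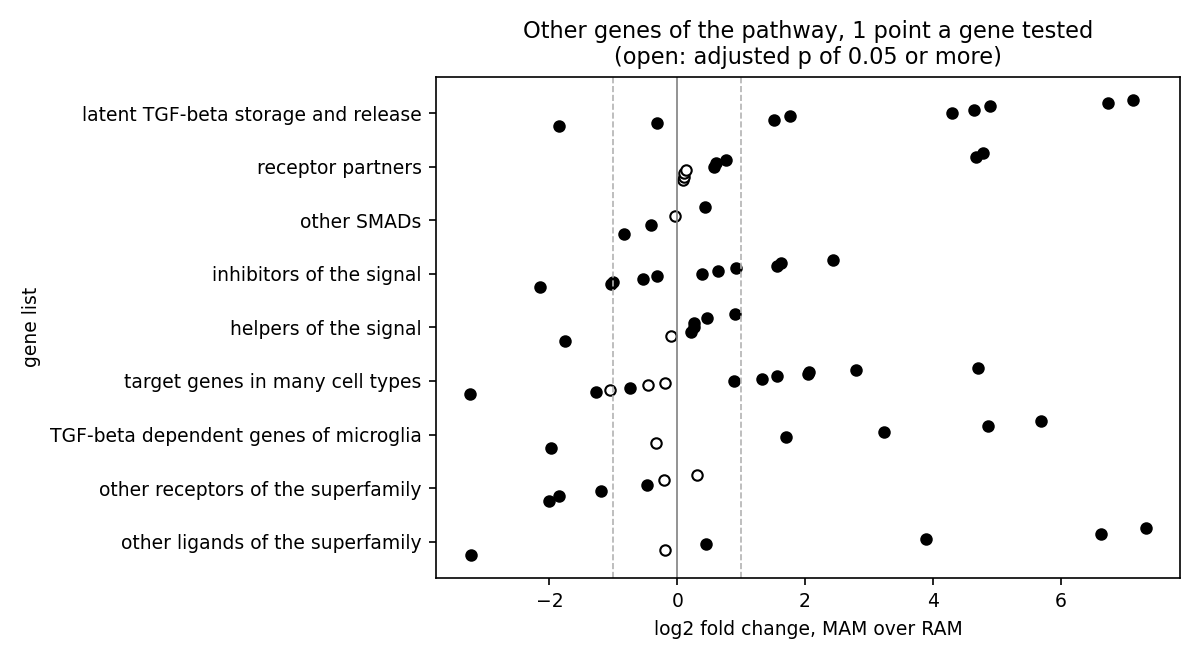
Log2 fold change of each tested gene in 9 lists of TGF-beta pathway and superfamily genes, MAMs over RAMs, with 1 point for each gene and open points for those that did not pass the test. Dashed lines mark a fold change of 2. The largest differences were Bmp2 (7.34, other ligands) and Lrrc32 (7.13, storage and release), which both passed the filter only through MAMs. No other receptor of the superfamily passed the test as higher in MAMs.

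Receptors for activins and BMPs, the relatives of TGF-beta, were lower or did not pass, as Tgfbr1 and Tgfbr2 were lower. Of 6 tested, 4 were lower and none higher, or 1 higher without RAM replicate 3. Acvr1b, the activin type I receptor, had 20.97 ± 3.86 FPKM in MAMs and 49.8 ± 5.65 in RAMs, a change of -1.20 in log2 units (edgeR adjusted p = 8.22e-07). Acvr2b and Bmpr1a were lower by 2.00 and 1.84, at means under 4 FPKM in RAMs, through which alone they passed the filter. Of 13 listed ligands of the superfamily 6 were tested, with 4 higher and 1 lower. For 4 of these 5 the filter fixed the direction, since Bmp2, Gdf3 and Inhba passed it only through MAMs and Nodal only through RAMs. Bmp2, Gdf3 and Inhba, which encodes the activin A chain, rose by 7.34, 6.64 and 3.89 on the log2 scale, to 4.70 ± 1.31, 10.0 ± 5.64 and 4.46 ± 1.06 FPKM in MAMs. The gene that was lower, named after its value was seen, was Nodal, at 1.36 ± 0.459 FPKM in RAMs.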

How the data were processed

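The 10 genes and the gene lists were chosen with earlier results of these data known. The authors aligned paired reads to GRCm38 with TopHat2 (2.0.13), counted uniquely mapped reads per gene on UCSC RefGene models with HTSeq (0.6.1) and deposited 1 table of raw counts per library. They also deposited FPKM values from Cufflinks (2.2.1). Lines that name no gene held 54.6% to 58.3% of all tallied reads in MAMs and 62.2% to 64.1% in RAMs and were left out. Libraries were grouped by their titles, and labels do not say whether they come from separate cohorts, so p-values measure the spread between these samples. Depth was 50746305 to 87523247 counts on genes per library.

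The 11571 genes that reached a mean FPKM of 1 in MAMs or RAMs and had any count were tested by edgeR 4.0.16 in R 4.3.3, with TMM normalization and Benjamini-Hochberg adjustment over all of them. A gene was called differentially expressed when its adjusted p was below 0.05 and its fold above 2. The difference in single ratios was tested by exact permutation (scipy 1.17.1). Alternatives were DESeq2 1.42.0, limma 3.58.1 on log2(FPKM + 1) and log2(FPKM + 0.1), RLE and upper-quartile scaling, other filters, the replicate number as a block, a test against a fold of 2 and each library left out. The fits were tested on simulated data. Genes named were the 10 genes, the 3 largest changes of each list that passed, and the most abundant marker of each cell type or those at 0. Other genes are said to be named after their values were seen, as are Ltbp1, Ltbp3, Gpr34, Furin, Emilin1, Itgb6, Itgb8, Acvrl1, Smad2, P2ry12 and Sall1. Positions came from GENCODE M21 and promoters from RefSeq, both on GRCm38. The values of 1 gene of the target list are not reported here.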

Additional observations from a re-analysis of the deposited data

Results flagged for a closer look

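Among the 20 sets of 5 libraries (10 genes in MAMs and in RAMs), examined in CPM and in FPKM, 3 genes had a library that stood apart from the others of its group by Dixon's criterion, which chance meets in about 1 of 20 sets. Tgfb3 in MAM replicate 4 had 9.24 FPKM, and the next library 3.16. In the same library the neutrophil markers summed to 59.8 FPKM, the endothelial markers to 13.8 and the lymphocyte markers to 8.49, each the highest of the MAM libraries, and the stromal markers to 3.13, the second lowest. Their part in the Tgfb3 level was not tested. Tgfbr3 in RAM replicate 1 had 1.46 CPM and 0.246 FPKM, against 0.417 CPM and 0.0548 FPKM in the next library, and the 85 counts behind it compare with 9 to 20 in the other RAM libraries. Smad7 in RAM replicate 5 had 11.1 CPM and 3.44 FPKM, against 6.55 CPM and 2.13 FPKM in the next library. In that library the lymphocyte markers summed to 11.5 FPKM, the highest of all 10. Its sums of monocyte-derived or interstitial (332), neutrophil (11.4) and dendritic (5.96) markers were the highest of the RAM libraries and that of alveolar markers (8513) the lowest, and their part in the Smad7 level was not tested.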

How the results depend on the processing

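Of the 10 genes, 8 kept their direction and their side of the threshold under every alternative fitted against no change. The exceptions were Tgfb1 and Skil. Tgfb1 was at -0.011 under upper-quartile normalization, which shifts all genes by a median of -0.16. Skil did not pass with limma on log2(FPKM + 1) or log2(FPKM + 0.1), both at -0.20. The cause was not tested. With 1 library left out at a time the log2 fold changes ran from 0.13 to 0.18 for Tgfb1 and from -0.54 to -0.33 for the Tgfbr1 to Tgfbr2 ratio. For Tgfb3 they ran from 0.15 to 1.21 and for Tgfbr3 from 3.98 to 5.17. The number of genes among the 10 with a fold over 2 was 6 under most alternatives and 4 with limma on log2(FPKM + 1), or when tested against a fold of 2 itself, where Tgfb2 and Smad7 were lost. Over all genes the number differentially expressed ran from 2511 with that test to 4672 without a filter, from 3511. With the replicate number as a block, 8 of the 10 genes passed, and 3526 genes were differentially expressed. The numbers share no design, and deviations of same-numbered libraries correlated between -0.04 and 0.02. Depth limits Tgfbr3 in RAMs (9 to 85 counts) and Tgfb2 in MAMs (17 to 261).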
